A study of Mus musculus with 24 samples.

Results

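The 9 cathepsin genes described here, Ctsa, Ctsb, Ctsc, Ctsd, Ctsh, Ctsk, Ctsl, Ctss and Ctsz, were taken by symbol from the deposited tables, which hold 17017 genes. Each of the 9 was listed in the tables and passed the minimum set for testing. The RNA came from primary alveolar macrophages of wild-type (WT) BALB/cJ mice, the macrophages that live in the air spaces of the lung, and was taken 20 h after stimulation. There were 8 groups of 3 libraries. The stimulated groups received rIL-33, rIL-13 and rIL-17A together, rIL-33 with rIL-13, rIL-13 with rIL-17A, rIL-13 alone, rIL-33 with rIL-17A, rIL-33 alone or rIL-17A alone, and the cells of the remaining group were untreated. The prefix r, for recombinant, is left out below.

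Cathepsins are proteases that work mainly in the acid interior of lysosomes, where they break down proteins taken up by endocytosis, phagocytosis and autophagy. Most are made as inactive precursors, tagged with mannose 6-phosphate in the Golgi and activated by cleavage once they reach acid compartments. In macrophages they degrade engulfed material and process antigens for MHC class II, and some are also released to act on extracellular matrix. IL-13 is a type 2 cytokine that drives alternative activation of macrophages, IL-33 is an alarmin of the airway, and IL-17A is best known for drawing neutrophils to tissue.

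The libraries held 9.13 to 12.9 M reads recovered from the deposited values, of which the 9 genes took 2.37% to 3.27%. The fewest reads behind any value were 1271, for Ctsh, and the most were 122438, for Ctsd. Untreated replicate 1, IL-17A replicate 2 and IL-33+IL-13+IL-17A replicate 2 were picked as standing apart from their groups, by a criterion that is not given here. Without these 3 libraries every call given below for a member was kept by limma and 1 was added (Ctsc in IL-13 with IL-17A against IL-17A, adjusted p 0.0427). Of 12 alveolar macrophage markers, 11 reached 1 TPM in some library with IL-13, while Marco stayed under 1 TPM on average. Summed markers of alveolar macrophages came to between 10370 and 13116 TPM in the 12 libraries with IL-13, against 3487 to 3783 TPM in the 12 without. Chil3 and Ear2, which rose with IL-13, made up most of that difference, and Siglecf averaged 296 TPM with IL-13 and 527 TPM without. Neutrophil markers summed to between 99.0 and 159 TPM with IL-13, against 161 to 205 TPM without, with 5 of 11 markers in the tables. The list did not move one way, since by limma 3 of its 4 tested members fell (S100a8, Csf3r and Cxcr2) and Mmp8 rose, averaging 44.5 TPM with IL-13 and 25.0 TPM without (log2 fold change 0.68, adjusted p 1.68e-07). Epithelial markers summed to between 8.01 and 11.7 TPM with IL-13, against 15.4 to 17.6 TPM without (4 of 9 in the tables). Fibroblast markers summed to between 2.31 and 4.22 TPM with IL-13, against 4.76 to 6.78 TPM without (4 of 7 in the tables), and Col1a1 and Dcn were each at 0 in 18 libraries. These marker sums moved with IL-13, as the cathepsin genes did, and their part in the results was not tested. In bulk RNA, fewer cells of a type and less RNA per cell cannot be told apart. The labels do not tell whether the 3 libraries of a group were separate cultures or mice; the p-values therefore rest on library-to-library spread, part or all of which may be technical.

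Sequences near the starts of the genes are shown because the cathepsin genes moved unequally with IL-13, and Ctsk and Ctss did so although they are neighbours. Ctsk (ENSMUSG00000028111) lies on chr3:95499256-95509362 and Ctss (ENSMUSG00000038642) on chr3:95526786-95556403 of mm10, both on the plus strand, 17.4 kb apart. Of the others, Ctsd (ENSMUSG00000007891) lies on chr7:142375911-142388038, Ctsl (ENSMUSG00000021477) on chr13:64359337-64370890 and Ctsz (ENSMUSG00000016256) on chr2:174427493-174439039, all on the minus strand. On the plus strand are Ctsa (ENSMUSG00000017760) on chr2:164832873-164841032, Ctsb (ENSMUSG00000021939) on chr14:63122462-63145923, Ctsc (ENSMUSG00000030560) on chr7:88278085-88310888 and Ctsh (ENSMUSG00000032359) on chr9:90054152-90076089. The windows of 250 bases before their RefSeq starts (GRCm38.p6, chr3:95498960-95499209 for Ctsk and chr3:95526536-95526785 for Ctss, plus strand) read 5′ to 3′ as follows, with the hexamer GAGGAA or its reverse complement in capitals. GAGGAA is a form of the core bound by ETS factors such as PU.1, a lineage factor of macrophages.
Ctsk: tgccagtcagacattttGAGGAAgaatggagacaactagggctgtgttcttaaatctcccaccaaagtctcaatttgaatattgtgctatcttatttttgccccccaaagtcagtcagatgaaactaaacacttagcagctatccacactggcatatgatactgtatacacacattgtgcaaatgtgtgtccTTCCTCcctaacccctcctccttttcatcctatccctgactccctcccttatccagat
Ctss: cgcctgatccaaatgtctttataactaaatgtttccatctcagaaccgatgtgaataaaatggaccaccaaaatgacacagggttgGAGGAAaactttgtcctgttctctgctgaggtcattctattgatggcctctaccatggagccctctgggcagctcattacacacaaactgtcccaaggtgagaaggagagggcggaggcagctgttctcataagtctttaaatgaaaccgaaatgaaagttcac
GAGGAA, searched on both strands, was in the windows of 3 members (Ctsc, Ctsk and Ctss) and in 23.3% of all 32851 windows of this length. GGGCGG, the GC box, was in the windows of Ctsc, Ctsd, Ctss and Ctsz and in 32.7% of all windows. The STAT6 motif, TTC and GAA with 4 bases of any kind between them, was in no member window and in 5.85% of all windows. TTC and GAA with 3 bases between them, the form shared by other STAT factors, was in the Ctsc window and in 7.02% of all windows.

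CACGTG, the palindromic E-box within the element through which TFEB and its relatives act on lysosomal genes, was in 3 of the 8 windows of the 7 members with a RefSeq promoter entry. It was in 6.02% of all windows. The stretches that hold it are shown with the hexamer in capitals, 5′ to 3′ on the strand of the gene, at chr7:142388057-142388077 and chr7:142387910-142387935 (minus strand) for Ctsd, chr2:164833751-164833772 (plus strand) for Ctsa and chr13:64370741-64370766 (minus strand) for Ctsl.
Ctsd, hexamer starting 245 bases before the start: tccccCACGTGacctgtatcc
Ctsd, hexamer starting 98 bases before the start: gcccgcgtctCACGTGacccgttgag
Ctsa, hexamer starting 12 bases before its later start: agcaaactgtCACGTGatgcag
Ctsl, hexamer starting 236 bases before the start: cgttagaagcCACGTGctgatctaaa
Of the 250 bases of each window, annotated exons cover 211 for Ctsd, 164 for Ctsa at its later start and 48 for Ctsl. The starts counted from are those of RefSeq. The Ctsa and Ctsl stretches, and the Ctsd stretch 98 bases before the start, lie inside the gene spans given above. They are thus downstream of the annotated gene start. These matches describe letters and not binding.

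The deposited TPM values are per base of the whole gene, introns included, so levels of different genes were set side by side only after rescaling to the length of 1 main transcript per gene. On that scale Ctsd was highest among the members in untreated cells, at 11415 ± 333 TPM per transcript length (SD, n = 3), and ranked 3 of 16998 genes. Ctsk, best known as a protease of osteoclasts, followed at 5929.7 ± 155 TPM (rank 6), and Ctsz at 4240.4 ± 102 TPM (rank 11). Ctsb, at 3557 ± 60.2 TPM, and Ctss, at 3489 ± 134 TPM, did not differ beyond their spread, and nor did Ctsa, at 2359 ± 60.6 TPM, and Ctsl, at 2301 ± 66.7 TPM. Ctsc and Ctsh were far lower, at 242 ± 4.74 and 229 ± 2.60 TPM. With IL-13 the order of Ctss and Ctsb was reversed. Ctss averaged 3560 ± 152 TPM per transcript length in the 12 libraries with IL-13 and 3407 ± 95.6 TPM in the 12 without, and Ctsb averaged 2926 ± 123 TPM with IL-13 and 3486 ± 112 TPM without (SD). With the union of all exons as the length, Ctss stood above Ctsb in both sets. On that length Ctsa also stood above Ctsl in untreated cells, at 1851 ± 49.7 against 1020 ± 30.2 TPM (SD, n = 3). The likeness of Ctsa and Ctsl thus depended on the length used. The summed level of the 9 genes was 28062 ± 1162 TPM per transcript length with IL-13 and 32912 ± 1023 TPM without.

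**Figure D1:**
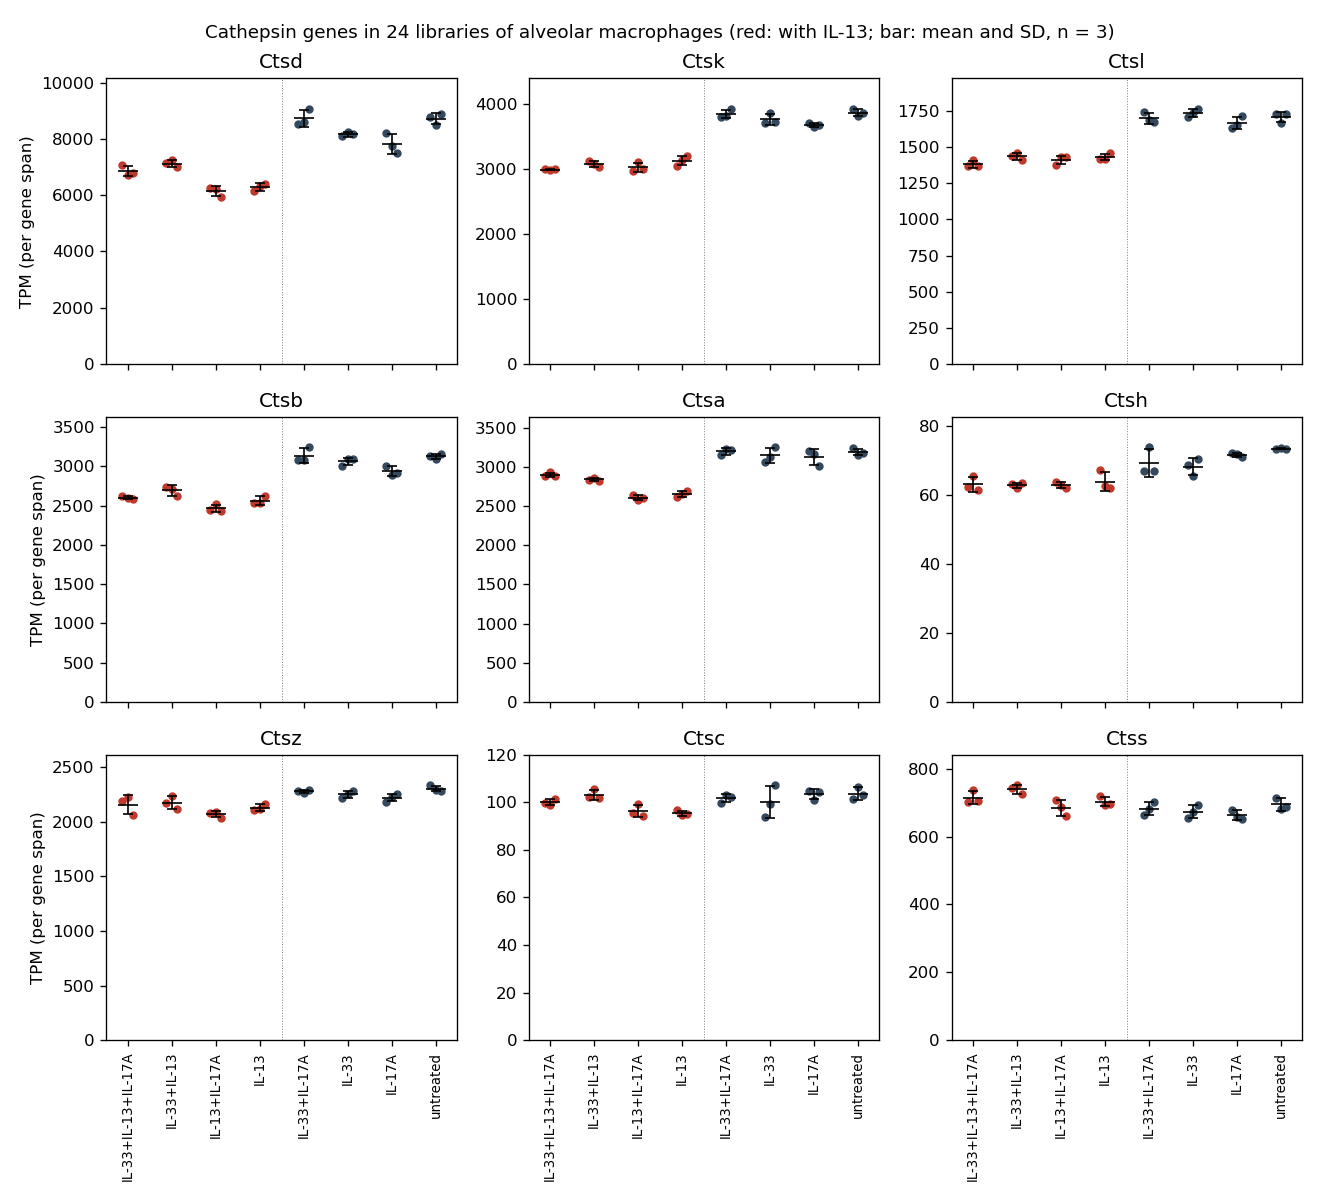
Deposited TPM (vertical axis, per gene span, from 0) of the 9 cathepsin genes in each of 24 libraries, by group, with group mean and SD (n = 3). Red points received IL-13; for Ctsd, Ctsk, Ctsl, Ctsb and Ctsa every red point lies below every dark point.

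The first question was what IL-13 did to the genes over all backgrounds, 12 libraries with it against 12 without. By limma on log2(TPM + 1), at a Benjamini-Hochberg adjusted p under 0.05 over 13215 genes, 8 of the 9 genes fell and 1, Ctss, rose. Of all tested genes, 30.9% fell and 20% rose. The median log2 fold change of the members was -0.20, beside -0.05 over all tested genes. After median-ratio scaling of the libraries, 50.5% of the called genes were higher, against 39.3% without it, and Ctsc and Ctsz were no longer called. The libraries with IL-13 lay wholly below those without for 5 members, Ctsd, Ctsk, Ctsl, Ctsb and Ctsa, as they did for 8.87% of all tested genes. No member lay wholly above, as 6.18% of all tested genes did.

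Ctsd encodes the main aspartic protease of lysosomes, which is made as a zymogen and cuts within proteins. Its libraries with IL-13 ran from 5929 to 7238 TPM (median 6567), against 7480.4 to 9059 TPM (median 8371) without IL-13. The sets did not overlap. The log2 fold change was -0.34, a fall of 21.1% (95% interval 19.2% to 22.9%), with an adjusted p of 1.26e-12 by limma. Gm49369, which overlaps 6757 bases of Ctsd on the same strand, fell with IL-13 too (log2 fold change -0.46, limma adjusted p 0.000135), and reads in the shared stretch could have been given to either gene. It averaged 153 recovered reads a library, against a median of 92031 for Ctsd.

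The cysteine endopeptidases fell into 3 genes that dropped and 1 that did not. Ctsk, a collagen-cutting protease, ran from 2972 to 3191 TPM with IL-13 (median 3035), against 3636 to 3919 TPM without (median 3803), with no overlap. It fell by 0.31 on the log2 scale, which is 19.3% (limma adjusted p 1.33e-14). Ctsl, a broad-acting endopeptidase, ran from 1368 to 1459 TPM with IL-13 (median 1421), against 1637 to 1765 TPM without (median 1712). These sets did not overlap either, and the fall was 0.27 on the log2 scale or 16.8% (limma adjusted p 6.42e-13). Ctsb, which acts as an endopeptidase and as a peptidyl-dipeptidase, ran from 2429.9 to 2741 TPM with IL-13 (median 2589), against 2890.5 to 3245 TPM without (median 3088), so that it too separated the sets. It fell by 0.25 on the log2 scale or 15.8% (limma adjusted p 1.84e-12).

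Ctss, the cysteine protease that trims the invariant chain for MHC class II loading, ran the other way. Its libraries with IL-13 had 661 to 751 TPM (median 706), against 652 to 715 TPM without (median 680.4). The ranges overlapped for most of their length. The log2 fold change was 0.07, a rise of 4.73% (95% interval 2.36% to 7.15%), with a limma adjusted p of 0.00144. Hmgb1-ps5, a pseudogene within Ctss on the same strand, held only 5.83 recovered reads a library on average.

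Of the exopeptidases, Ctsh, an aminopeptidase, ran from 61.4 to 67.2 TPM with IL-13 (median 62.7), against 65.6 to 74.0 TPM without (median 71.6), and the ranges overlapped at their ends. It fell by 10.4% (log2 fold change -0.16, limma adjusted p 1.42e-06). Ctsz, a carboxypeptidase, ran from 2037 to 2238 TPM with IL-13 (median 2112), against 2182 to 2333 TPM without (median 2270.2). The sets overlapped, and the fall of 5.80% (log2 fold change -0.09, limma adjusted p 1.32e-05) was not called after median-ratio scaling (limma adjusted p 0.412). Ctsc, dipeptidyl peptidase I, which activates serine proteases of granules, ran from 94.1 to 105 TPM with IL-13 (median 99.2), against 93.7 to 107 TPM without (median 102). Its ranges were nearly the same. Its log2 fold change was -0.05 (limma adjusted p 0.0345), but 0.00 after median-ratio scaling (limma adjusted p 0.919), and the call was lost when any 1 of 12 libraries was left out, named with the processing results. Ctsa, the serine carboxypeptidase that protects β-galactosidase and neuraminidase in a complex, ran from 2571 to 2928 TPM with IL-13 (median 2761), against 3015 to 3251 TPM without (median 3172). It did not overlap, and fell by 13.2% (log2 fold change -0.20, limma adjusted p 1.79e-11). Neurl2 and Pltp overlap Ctsa on the opposite strand, as Fdft1 does Ctsb, and the strand setting of the counting is unknown here. Neurl2 averaged 133 recovered reads a library, Pltp 839.9 and Fdft1 845, against medians of 24443 for Ctsa and 67390.0 for Ctsb.

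**Figure D2:**
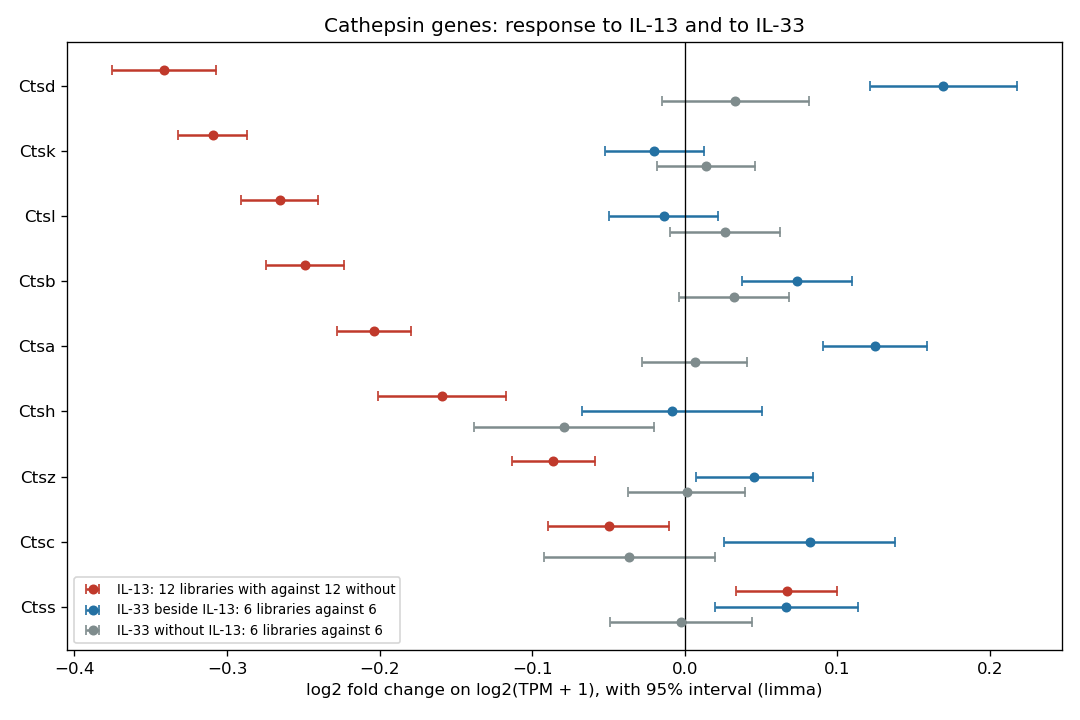
log2 fold change (horizontal axis, log2(TPM + 1) scale, bars: 95% interval from limma) of each cathepsin gene for IL-13, for IL-33 beside IL-13, and for IL-33 without IL-13. All genes but Ctss lie below 0 for IL-13, and Ctsd and Ctsa lie furthest above 0 for IL-33 beside IL-13.

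Most members fell with IL-13 in each of the 4 backgrounds, which use separate libraries but share 1 fit and its spread. Ctsc did not fall in the background of IL-33 alone, and averaged 103 ± 2.02 TPM with IL-33 and IL-13, against 100 ± 6.75 TPM with IL-33 (SD, n = 3). With IL-33 and IL-17A present it averaged 99.99 ± 1.24 TPM with IL-13, against 101.7 ± 1.72 TPM without, and was not called. In cells given IL-13 alone against untreated cells, 8 members fell and none rose by limma, beside 15.7% and 14.1% of all genes. There Ctsz (limma adjusted p 0.349) and Ctsc (0.139) were not called after median-ratio scaling, nor Ctsz by limma-voom (adjusted p 0.0715) or Ctsc with only the compared groups in the fit (limma adjusted p 0.0535). In IL-13 with IL-17A against IL-17A alone 7 fell and none rose, beside 17.6% and 12.2%, and after median-ratio scaling Ctsh (limma adjusted p 0.0835) and Ctsz (0.561) were not called, nor Ctsz by limma-voom (adjusted p 0.124). In IL-33 with IL-13 against IL-33 alone 6 fell and Ctss rose, beside 12.8% and 11.2%, and Ctsa (limma adjusted p 0.106) and Ctsh (0.318) were not called after median-ratio scaling, nor Ctsh by limma-voom (adjusted p 0.136) or with only the compared groups (limma adjusted p 0.0908). In the triple combination against IL-33 with IL-17A 7 fell and none rose, beside 21.7% and 11%. Ctsd, Ctsk, Ctsl and Ctsb were called lower in all 4 backgrounds, also after median-ratio scaling and by limma-voom. In the triple combination against IL-33 with IL-17A, Ctsa, Ctsh and Ctsz were not called by either alternative, and Ctsz turned positive (log2 fold change 0.03 after median-ratio scaling, 0.00 by limma-voom). In that background Ctsh was lost without IL-33+IL-17A replicate 2 or IL-33+IL-13+IL-17A replicate 3 (limma adjusted p 0.0532 to 0.115), and Ctsz without IL-33+IL-17A replicate 1 or 3 or IL-33+IL-13+IL-17A replicate 3 (limma adjusted p 0.0505 to 0.133). In IL-33 with IL-13 against IL-33 alone Ctsh was lost without any 1 of the 3 replicates of IL-33+IL-13, IL-33 replicate 1 or 3 or IL-13+IL-17A replicate 2 (limma adjusted p 0.0506 to 0.167). In IL-13 against untreated cells Ctsc was lost without untreated replicate 2 or IL-13 replicate 2 or 3 (limma adjusted p 0.0621 to 0.110). Ctsd had 6133, 6310.5 and 6408 TPM with IL-13 alone, against 8774, 8485 and 8880.03 TPM in untreated cells. It had 7128, 7238 and 6980.4 TPM with IL-33 and IL-13, against 8086, 8257 and 8155 TPM with IL-33 alone. In both pairs the libraries with IL-13 were lower without overlap, by 27.9% and by 12.9%. The share of all genes that separated with 3 libraries a side was not counted, here or for Ctss below. Ctss had 743, 751 and 724 TPM with IL-33 and IL-13, against 654, 673 and 694 TPM with IL-33 alone, again without overlap, and was called by limma on TPM in this background alone among the 4 (9.77% higher, limma adjusted p 0.00335). Its log2 fold changes in the other 3 were 0.02 against untreated cells, 0.05 with IL-17A present and 0.07 with IL-33 and IL-17A present. That Ctss call was not made by limma-voom (adjusted p 0.0725) or after median-ratio scaling (limma adjusted p 0.0577), where 4 of the 9 members were called in that background. With IL-33 and IL-17A present the reverse held, and Ctss was called by limma-voom (adjusted p 0.0242) and after median-ratio scaling (limma adjusted p 0.0269) but not by limma on TPM (adjusted p 0.106).

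Against untreated cells, which these comparisons share, 8 members were lower and none higher with IL-13 and IL-17A by limma, beside 15.5% and 14% of all genes. Of these, Ctsc (limma adjusted p 0.154) and Ctsz (0.111) were not called after median-ratio scaling, nor Ctsc with only the compared groups (limma adjusted p 0.0981). With IL-33 and IL-13, 7 were lower and Ctss was higher, beside 14% and 11.1%. With the triple combination 7 were lower and none higher, beside 17.7% and 10.3%. Of these, Ctsa (adjusted p 0.168) and Ctsz (0.585) were not called by limma-voom, nor Ctsz with only the compared groups (limma adjusted p 0.188). With IL-33 and IL-13, Ctsz was not called by limma-voom (adjusted p 0.262) or with only the compared groups (limma adjusted p 0.113). The call of Ctss with IL-33 and IL-13 (log2 fold change 0.09, limma adjusted p 0.0417) was not made by limma-voom (adjusted p 0.229), after median-ratio scaling (limma adjusted p 0.145) or with only the compared groups in the fit (limma adjusted p 0.110). It was lost too without untreated replicate 2 or 3, IL-33+IL-13 replicate 1 or 2, IL-33 replicate 2, IL-13+IL-17A replicate 2 or IL-33+IL-17A replicate 2 (limma adjusted p 0.0507 to 0.148). After median-ratio scaling 5 members were called for IL-33 with IL-13 and 4 for the triple combination. Ctsa and Ctsz were lost in both, Ctss in the first and Ctsh in the second.

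The ratio of Ctsk to Ctss in deposited TPM was 4.04 to 4.58 in libraries with IL-13, against 5.36 to 5.74 in those without, with no overlap. The size of such a ratio depends on the 2 gene spans, and only its change between libraries can be read. By transcript length, Ctss made up 12.7% ± 0.262 of the members' summed level with IL-13 and 10.4% ± 0.181 without, and Ctsd 30.7% ± 1.07 with IL-13 and 33.2% ± 0.862 without (SD, n = 12 each).

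**Figure D3:**
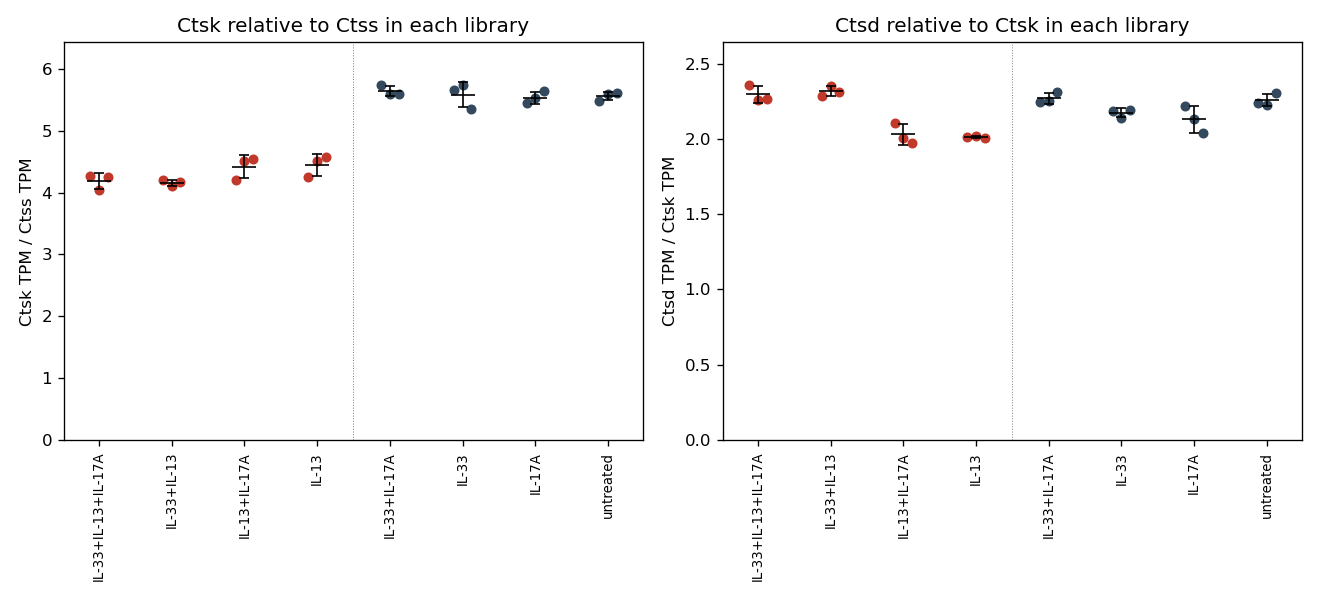
Ratio of Ctsk to Ctss (left) and of Ctsd to Ctsk (right) in deposited TPM, in each library (points) with group mean and SD (n = 3), on axes from 0. The Ctsk to Ctss ratio is 4.04 to 4.58 in the red groups with IL-13, and the Ctsd to Ctsk ratio is 2.26 to 2.36 in the groups with both IL-33 and IL-13.

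The next question was whether IL-33 changed the genes in cells that also received IL-13, 6 libraries with IL-33 against 6 without. By limma, 3 members rose, Ctsd, Ctsa and Ctsb, and none fell, beside 2.53% and 4.48% of all genes. After median-ratio scaling 46.9% of all called genes were higher, against 36.1% without it, and by limma-voom 48.6% were. Ctsd had 6726 to 7238 TPM with IL-33 and IL-13 (median 7019), against 5929 to 6408 TPM with IL-13 and no IL-33 (median 6245). It rose by 12.5% (log2 fold change 0.17, 95% interval 8.77% to 16.3%, limma adjusted p 6.32e-05), and the sets did not overlap. Ctsa had 2824 to 2928 TPM with IL-33 and IL-13 (median 2869), against 2571 to 2697 TPM with IL-13 and no IL-33 (median 2629), also without overlap. It rose by 9.02% (log2 fold change 0.12, limma adjusted p 4.47e-05). Of all tested genes, 1.64% were wholly higher in this way and 3.68% wholly lower. Ctsb rose by 5.22% (log2 fold change 0.07, limma adjusted p 0.0112), with 2584 to 2741 TPM with IL-33 and IL-13, against 2429.9 to 2627 TPM with IL-13 and no IL-33, in overlapping sets, and was not called after median-ratio scaling (limma adjusted p 0.0921).

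The other 6 members were not called. For Ctsk the log2 fold change was -0.02 (95% interval of the change -3.57% to 0.855%) and for Ctsl -0.01 (-3.39% to 1.54%). The direction of Ctsk, Ctsl and Ctsh turned positive after median-ratio scaling and by limma-voom. Ctss (log2 fold change 0.07, limma adjusted p 0.0877) and Ctsc (0.08, limma adjusted p 0.0787) missed the threshold, and Ctsc was called after median-ratio scaling (limma adjusted p 0.0237) and by limma-voom (adjusted p 0.0118), as well as without IL-33 replicate 1 or 3 in the shared fit. Ctsz (0.05, limma adjusted p 0.175) was called without IL-33+IL-13+IL-17A replicate 3 (limma adjusted p 0.0190). The Ctsd to Ctsk ratio was 2.26 to 2.36 with IL-33 and IL-13, against 1.98 to 2.11 with IL-13 and no IL-33, without overlap. Alveolar macrophage markers summed to between 10370 and 10767 TPM with IL-33 and IL-13, against 12072 to 13116 TPM with IL-13 and no IL-33. Neutrophil markers summed to between 99.0 and 151 TPM with IL-33 and IL-13, against 144 to 159 TPM with IL-13 and no IL-33. These ranges overlapped, and Mmp8 was called lower (26.1 TPM with IL-33 and IL-13 and 62.9 TPM with IL-13 and no IL-33, limma adjusted p 1.34e-07), while Cxcr2 and Csf3r were called higher by limma (log2 fold change 0.66 and 0.38, adjusted p 0.00708 and 0.0385). The part of these in the result was not tested.

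In the single backgrounds, Ctsd and Ctsa were called by limma in IL-33 with IL-13 against IL-13 alone (13.2% and 6.88% higher, adjusted p 0.00308 and 0.0282, beside 0.832% of all genes higher and 1.74% lower). They were called in the triple combination against IL-13 with IL-17A too (11.7% and 11.2% higher, adjusted p 0.00649 and 0.000449, beside 1.15% higher and 2.4% lower). These calls were less firm than those from 6 libraries a side. In the first background Ctsa was lost without a filter on low values, by limma-voom, with only the compared groups in the fit and without IL-13 replicate 1 or 2 or any 1 of the 3 replicates of IL-33+IL-13 (limma adjusted p 0.0732 to 0.150), and neither gene was called after median-ratio scaling, with nearly the same log2 fold changes (0.10 and limma adjusted p 0.507 for Ctsa, 0.18 and 0.0890 for Ctsd). In the second, both were lost with only the compared groups in the fit (limma adjusted p 0.0916 for Ctsa and 0.179 for Ctsd), and Ctsd without IL-13+IL-17A replicate 3 (limma adjusted p 0.0534).

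Without IL-13, IL-33 was followed by no call among the 9 members and none among the 13215 genes by limma, with 656 genes at an unadjusted p under 0.05. Ctsd had 8086 to 9059 TPM with IL-33 (median 8393), against 7480.4 to 8880.03 TPM with neither IL-33 nor IL-13 (median 8343), and the ranges overlapped. The change of Ctsd was 2.33% (95% interval -1.03% to 5.80%) and that of Ctsa 0.445% (-1.92% to 2.86%). For Ctsd that value averaged opposite moves. Ctsd averaged 8166 ± 85.9 TPM with IL-33 alone, against 8713 ± 205 TPM in untreated cells (SD, n = 3). With IL-17A present it averaged 8724 ± 291 TPM with IL-33, against 7813 ± 364 TPM without IL-33. With IL-17A and IL-13 present Ctsd was higher with IL-33 too, at 6857 ± 176 TPM against 6139 ± 183 TPM without IL-33. The test of the difference, the IL-33 effect with IL-13 minus that without, called Ctsd (log2 difference 0.14, limma adjusted p 0.0209) and Ctsa (0.12, limma adjusted p 0.00479) higher and no member lower, beside 1.46% and 2.11% of all genes. After median-ratio scaling neither was called, with log2 differences of 0.17 for Ctsd (limma adjusted p 0.104) and 0.15 for Ctsa (limma adjusted p 0.149) that were no smaller. Ctsd was not called without a filter on low values either (limma adjusted p 0.0599). By limma-voom Ctsc was called in addition (adjusted p 0.0203), and the share of called genes that were higher was 52.0%, against 40.9% by limma on TPM.

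IL-17A was followed by no call among the 9 genes by limma, over 12 libraries with it against 12 without. Of all 13215 genes 0 were called, with 440 at an unadjusted p under 0.05. The members' log2 fold changes ran from -0.04 to -0.00, and the widest intervals reached from -4.84% to 2.64%. Against untreated cells, IL-17A alone, IL-33 alone and both together each gave 0 called genes by limma and 0 by limma-voom, with 469, 484 and 501 genes at an unadjusted p under 0.05 by limma. Ctsd had 8202, 7756 and 7480.4 TPM with IL-17A alone, against 8774, 8485 and 8880.03 TPM in untreated cells, a lower set without overlap that was not called (log2 fold change -0.16, limma adjusted p 0.392). Ctsb, Ctsk, Ctsz, Ctsh and Ctss were also lower there without overlap and not called. The share of all genes that separated in this way was not counted, so nothing about the members can be read from it.

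Other genes of the cathepsin system were counted from lists, by limma for IL-13 in 12 against 12 libraries. Of all 13215 tested genes 30.9% fell and 20% rose there, and each list count for IL-13 stands beside these shares. After median-ratio scaling 3367 of the 13215 genes fell and 3436 rose. Of 11 other lysosomal proteases, 9 were tested, of which 8 fell and none rose, with a median log2 fold change of -0.20, while after median-ratio scaling 7 fell and 1, Prcp, rose. Dpp7, a dipeptidyl peptidase, averaged 931 ± 44.6 TPM with IL-13 and 1155 ± 24.5 TPM without (log2 fold change -0.31, adjusted p 3.35e-14). Ctsf, a further cysteine cathepsin, averaged 45.7 ± 2.96 TPM with IL-13 and 67.5 ± 4.05 TPM without (log2 fold change -0.55, adjusted p 1.47e-10). Lgmn, the asparaginyl endopeptidase that processes cathepsins, fell by 0.13 on the log2 scale with IL-13 (adjusted p 2.5e-06) and was 0.28 higher with IL-33 beside IL-13 (adjusted p 2.77e-07). For that IL-33 comparison 3 of the 9 rose (Lgmn, Dpp7 and Tpp1) and none fell, beside 2.53% and 4.48% of all genes. Ctso was called in addition after median-ratio scaling and by limma-voom.

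Of 13 genes listed as cathepsin inhibitors, 7 were tested (median log2 fold change with IL-13 -0.23). With IL-13 3 rose and 4 fell, beside 20% and 30.9% of all genes. The list thus did not move one way. Those that rose were the serpins Serpinb9 and Serpinb1a, and Cst7. Cst7 was low, averaging 0.83 TPM with IL-13 and 0.16 TPM without. Whether the listed serpins act on the cathepsins described here was not tested, so their rise does not show that inhibitors of these cathepsins rose. The cystatins Cst3 and Cstb, inhibitors of cysteine cathepsins, fell, Cst3 to 1282 ± 78.7 TPM with IL-13 against 1524 ± 53.8 TPM without (log2 fold change -0.25, adjusted p 7.92e-09). The serpin Serpinb9 rose to 23.2 ± 3.39 TPM with IL-13, against 15.8 ± 1.38 TPM without (log2 fold change 0.52, adjusted p 7.85e-10). With IL-33 beside IL-13, Serpinb9 was lower by 0.36 on the log2 scale (adjusted p 0.000142). Of the 13 genes of mannose 6-phosphate tagging and sorting, 12 were tested, 8 fell and 1, Vps26a of the retromer, rose with IL-13 (median log2 fold change -0.12), and 6 fell after median-ratio scaling. Of these, the receptor M6pr (log2 fold change -0.05, adjusted p 0.00216) was not called after median-ratio scaling (adjusted p 0.968).

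All 4 MiT/TFE transcription factors were tested, a family with members that act on lysosomal genes through the E-box shown above. With IL-13 3 rose and 1 fell, beside 20% and 30.9% of all genes, while most cathepsin genes fell. Tfec rose to 10.99 ± 1.75 TPM with IL-13, against 3.11 ± 0.246 TPM without (log2 fold change 1.53, limma adjusted p 4.68e-17). Tfeb rose by 0.28 (limma adjusted p 7.97e-08) and Mitf by 0.36 (limma adjusted p 2.45e-06), and Tfe3 fell by 0.09 (limma adjusted p 0.0208), on the log2 scale. Of 5 partners and substrates, 4 fell and 1 rose, and Psap was not called after median-ratio scaling. Cd74, the invariant chain that Ctss trims, rose to 172 ± 14.9 TPM with IL-13, against 115 ± 8.37 TPM without (log2 fold change 0.57, limma adjusted p 6.36e-11). Grn, the progranulin that cathepsins cleave, fell to 1579 ± 60.5 TPM with IL-13, against 2052 ± 66.9 TPM without (log2 fold change -0.38, limma adjusted p 6.98e-13). Neu1 and Glb1, which form the complex with Ctsa, fell by 0.15 and 0.33 on the log2 scale (limma adjusted p 2.13e-07 and 4.05e-09). Of 9 genes expressed by osteoclasts, 5 were tested, and 4 rose and 1 fell with IL-13, among them Acp5 (log2 fold change 0.71, limma adjusted p 3.09e-17), while Ctsk, the best known protease of that cell, fell.

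**Figure D4:**
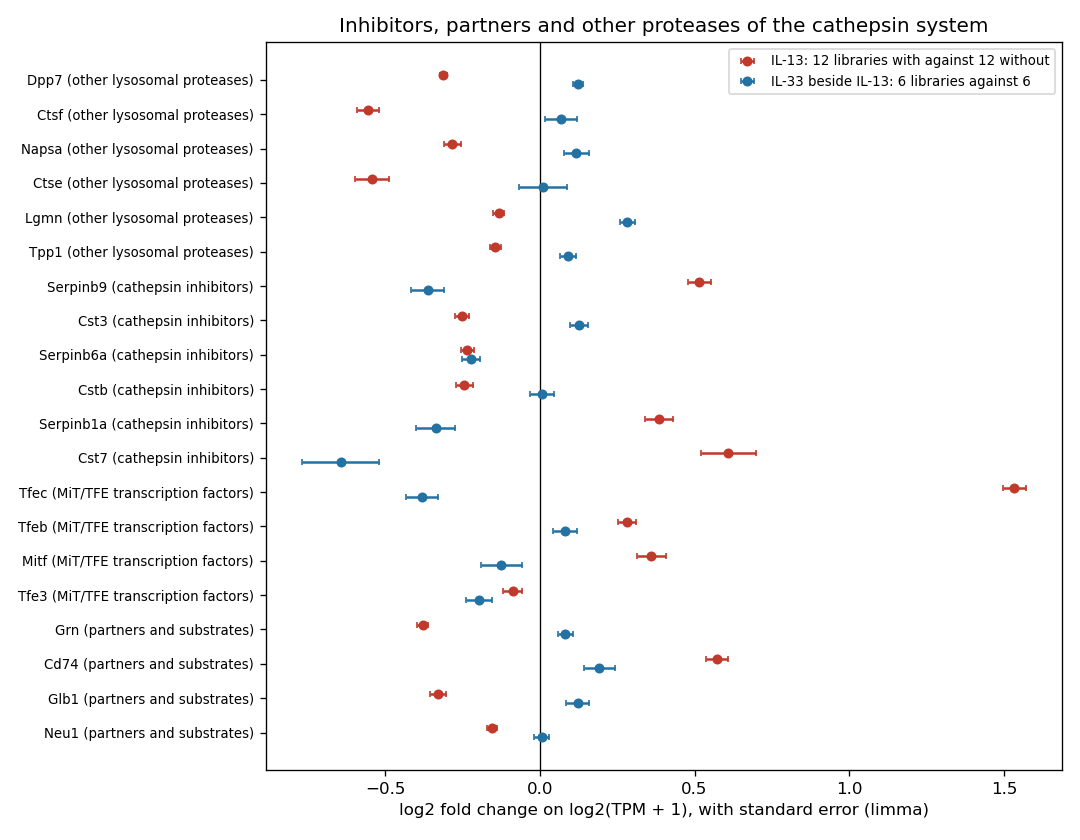
log2 fold change (horizontal axis, log2(TPM + 1) scale, bars: standard error from limma) of named genes of the cathepsin system, for IL-13 (red) and for IL-33 beside IL-13 (blue). Tfec lies furthest right for IL-13, at 1.53, while Lgmn lies furthest right for IL-33 beside IL-13, at 0.28.

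By pattern over the 24 libraries, the genes most like Ctsd among 6289 genes of at least 10 TPM with a symbol that is not provisional were Lamp1 (Pearson r 0.978), Rnh1 (0.958) and Hexa (0.957). Lamp1 is a membrane protein of lysosomes and Hexa a lysosomal hexosaminidase. The genes most like Ctss were Rps12 (r 0.773), Tceal9 (0.772) and Chchd2 (0.765), a much weaker likeness. The libraries behind each r share the IL-13 split and the scaling to TPM.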

How the data were processed

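RNA-seq of alveolar macrophages was used as deposited, 1 table a library. The authors' values are TPM, and per the file headers a gene length stands beside them, which equalled the gene span for all 17017 genes. The submitters' processing notes name STAR and the mm10 build; how reads were counted, and whether by strand, is not given in the sources used here. Multiplying TPM by length recovered reads, whole within 0.05 in 87.6% to 89.0% of the values that held no more than 20, and gave a median of 10.6 M reads a library.

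Groups came from the treatment label. As the tables held TPM, limma-trend (limma 3.58.1, R 4.3.3) was run on log2(TPM + 1) for the 13215 genes that reached 1 TPM in 3 or more libraries, in 1 fit of 24 libraries and 8 group means with no covariates and Benjamini-Hochberg adjustment over all genes of a comparison. The fit was run on simulated reads in which 200 genes were changed by known folds. Those folds were larger than the changes of the members, so the run does not bear on changes of their size. Fold changes on this scale are understated for genes near 1 TPM. Percent changes and intervals come from the log2 values. Levels per transcript length used the GENCODE M21 annotation, and promoters RefSeq (GRCm38.p6).

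The cathepsin genes and lists were chosen with earlier results of these data known. Named genes are the 9 members, up to 4 called genes a list with the smallest p for IL-13 plus up to 2 for IL-33 beside IL-13 or the interaction, and 3 like genes for the largest rise and fall, of which a part is printed; Prcp, Ctso and Psap were named after their values were seen. The 5 comparisons in 1 background other than IL-13 against untreated were added after the data were seen. Alternatives were the pseudocount, the filter, median-ratio scaling, limma-voom on recovered reads, only the compared groups, and leaving out each library or the 3 libraries picked as standing apart.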

Additional observations from a re-analysis of the deposited data

Results flagged for a closer look

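The effect of IL-33 on Ctsd and on Ctsa differed between cells with and without IL-13, by the interaction term of the limma fit. That term averages over cells with and without IL-17A. For Ctsd the IL-33 effect was 0.14 higher on the log2 scale with IL-13 than without (limma adjusted p 0.0209). For Ctsa it was 0.12 higher (limma adjusted p 0.00479). Neither was called after median-ratio scaling, where the differences were 0.17 for Ctsd and 0.15 for Ctsa. Without IL-13, Ctsd was lower with IL-33 alone (8166 TPM) than in untreated cells (8713 TPM). It was higher with IL-33 and IL-17A (8724 TPM) than with IL-17A alone (7813 TPM). With IL-17A and no IL-13, the Ctsd log2 fold change against untreated cells was -0.16 without IL-33 and 0.00 with it. With IL-13 and IL-17A it was -0.51 without IL-33 and -0.35 with it, a step of like size. Without IL-17A it was -0.09 with IL-33 alone, -0.47 with IL-13 alone and -0.29 with both. The called Ctsd difference thus lay in the groups without IL-17A. No test of the difference was run within the groups with IL-17A.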

How the results depend on the processing

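No paired analysis was possible because the labels give no replicate numbers shared across groups. Over 846 alternatives for the members' log2 fold changes in 3 comparisons, the IL-13 effect over all backgrounds, the IL-33 effect beside IL-13 and the interaction, 810 kept direction and side of the threshold, 18 lost the call, 7 gained it and 11 reversed, and the cause was not tested. In the other comparisons, single backgrounds and those against untreated cells among them, a member's call was lost in 91 instances and gained in 9. After median-ratio scaling the members called were 5 of 8 for IL-33 with IL-13 and 4 of 7 for the triple combination against untreated cells, 4 of 7 for IL-33 with IL-13 against IL-33, 0 of 2 for the interaction and 0 of 2 for IL-33 with IL-13 against IL-13. With no filter the interaction kept 1 of 2, and IL-33 with IL-13 against IL-13 kept 1 of 2, as it did by limma-voom and with only the compared groups. With only the compared groups, the triple combination against IL-13 with IL-17A had 0 of 2. That fit called 5, 3 and 3 of all genes for IL-17A, IL-33 and both against untreated cells, in place of 0. It called 1508 in place of 3710 for the triple combination against untreated cells, 614 in place of 926 for IL-33 beside IL-13, 144 in place of 340 and 49 in place of 469 for its 2 single backgrounds, and 1847 in place of 4321 for the triple combination against IL-33 with IL-17A. IL-33 without IL-13 called 1 gene in place of 0 with no filter and with only the compared groups.

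Reversed values, none called, were Ctsc for IL-13 (0.0032 after median-ratio scaling), and for IL-33 beside IL-13 Ctsh, Ctsk and Ctsl (0.023, 0.012 and 0.018 after median-ratio scaling, 0.026, 0.015 and 0.021 by limma-voom). For the interaction Ctsk and Ctsl were 0.013 and 0.0062 by limma-voom. With single libraries left out, Ctsh for IL-33 beside IL-13 ran from -0.022 to 0.0093. The members called ran from 8 to 9 for IL-13, 3 to 4 for IL-33 beside IL-13, 2 to 3 for the interaction, 1 to 2 for IL-33 with IL-13 against IL-13 and 1 to 3 for the triple combination against IL-13 with IL-17A. Of all genes, those last 2 had 212 to 418 and 286 to 666 called, and the effects of IL-33 without IL-13 and of IL-17A 0 to 1 each. Ctsc for IL-13 lost its call (limma adjusted p 0.0505 to 0.0670) without untreated replicate 2, IL-13 replicate 2 or 3, IL-17A replicate 1 or 3, IL-13+IL-17A replicate 1 or 3, IL-33 replicate 3, IL-33+IL-17A replicate 2 or 3, or IL-33+IL-13 replicate 1 or 3. Against untreated cells Ctsc for IL-13 with IL-17A was lost in 16 of the fits without 1 library, Ctsz for IL-33 with IL-13 in 3 and for the triple combination in 1 (limma adjusted p 0.0511 to 0.177, 0.0573 to 0.125 and 0.0536). The 5 added comparisons were chosen after seeing the data. Ctsh, with the fewest reads, had at least 1271 in every library.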
